A study of Mus musculus with 15 samples.

Results

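Abhd1 is an alpha/beta hydrolase-fold gene on mouse chromosome 5, the chromosome of Add1. It was described here with 9 genes that lie near it in the reference gene order, where other, unlisted genes lie among them. In that order the genes are Tmem214, Agbl5, Emilin1, Khk, Abhd1, Preb, Slc5a6, Atraid, Cad and Mpv17. Abhd1 was chosen by its measured difference between null and wild-type arrays and by the steps its arrays make across the genotypes, so its values are given as a description with no test. The 9 neighbours were listed by position. The 10 genes belong to 19938 genes with a probe set of their own, of which 10109 passed the filter on low values, and all 10 members were among those that passed.

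Gene expression was measured in choroid plexus dissected from 15 mice on the C57BL/6J strain, all labelled male and 3 weeks old, an age chosen to precede hydrocephalus. The animals were 5 wild-type, 5 heterozygous and 5 null for Add1, the gene of the membrane skeleton protein alpha-adducin, and each gave 1 Affymetrix whole-transcript array. The sources used here do not say how the Add1 allele was made or which part of the gene it lacks, nor do they give the strain it was made in or the number of backcrosses to C57BL/6J. Effects of losing Add1 and of any other alleles carried with it on chromosome 5 therefore cannot be told apart in the values of Abhd1 and its neighbours. All values are log2 levels as deposited, and a difference of 1 means a doubling of signal.

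The choroid plexus epithelium secretes cerebrospinal fluid and carries vitamins, sugars and other solutes from blood into it. The product of Abhd1 is described as a membrane protein with the alpha/beta hydrolase fold shared by many lipases and esterases, and its own substrate is not settled. In the reference annotation (GRCm38.p6), which derives from C57BL/6J, however, Abhd1 is classed as a transcribed pseudogene and the 9 neighbours as protein-coding. The RNA levels here do not show whether an Abhd1 protein is made in these animals. Genes close together on a chromosome tend to be inherited together. In the reference order, 104 annotated genes lie between Abhd1 and Add1, 59 of them with a probe set here.

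A RefSeq promoter window of 300 bases around an annotated start was matched by symbol for 9 of the 10 members; Abhd1 is named only. Windows are shown for Atraid and Khk, the neighbours with called differences in the results below. The Atraid window (GRCm38.p6, chr5:31048390-31048689, plus strand) and a Slc5a6 window on the minus strand share 177 bases, printed in capitals, so that these genes start head to head. Of 27025 genes with a window, 11.9% share at least 1 base with a window of another gene on the opposite strand.
Atraid: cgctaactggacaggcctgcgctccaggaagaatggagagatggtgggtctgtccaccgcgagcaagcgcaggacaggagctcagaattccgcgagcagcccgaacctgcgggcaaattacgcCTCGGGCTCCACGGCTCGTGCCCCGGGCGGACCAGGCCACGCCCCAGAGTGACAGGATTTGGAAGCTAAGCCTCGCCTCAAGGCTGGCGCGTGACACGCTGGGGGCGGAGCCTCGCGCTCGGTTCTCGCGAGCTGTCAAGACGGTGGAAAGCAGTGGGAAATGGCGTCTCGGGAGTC
The Khk window (GRCm38.p6, chr5:30921309-30921608, plus strand) holds 1 match to the E-box letters CACGTG, which read the same on both strands and are printed in capitals.
Khk: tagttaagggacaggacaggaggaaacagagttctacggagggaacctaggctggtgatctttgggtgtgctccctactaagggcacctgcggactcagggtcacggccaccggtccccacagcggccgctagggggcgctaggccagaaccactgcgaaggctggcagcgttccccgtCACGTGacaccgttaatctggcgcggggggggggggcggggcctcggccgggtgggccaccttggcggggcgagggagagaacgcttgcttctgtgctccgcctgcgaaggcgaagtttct
These letters occur in 7.15% of all 32851 windows, and among the other members only in the Mpv17 window. The GC box letters GGGCGG, searched on both strands, occurred in both printed windows and in 35.7% of all windows. A match is a description of the reference sequence and does not show that a factor binds there.

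The arrays had tissue markers as labelled, with 10 measured genes of the choroid plexus epithelium between 9.81 and 13.19. A pair of arrays went against the labelled sex. Xist, transcribed from the inactive X chromosome, read 9.09 to 9.69 in null arrays 1 and 5 and 3.11 to 3.88 in the other 13. Signal from the Y chromosome went the opposite way. Kdm5d, Uty and Eif2s3y lay between 3.19 and 4.27 in null arrays 1 and 5, and between 6.92 and 7.95 in the other 13. Null arrays 1 and 5 therefore read as female, and null was the only genotype with arrays of both patterns. Heterozygous array 1 had the highest mean over 8 neuronal markers, 6.64 against 4.78 to 5.50 elsewhere, and also the highest means of the oligodendrocyte markers (7.19 against 5.24 to 6.62) and astrocyte markers (7.61 against 6.40 to 7.52). Add1 fell by 0.31 in null against wild type (SE 0.0791, limma adjusted p = 0.0241). The call ended under 7 of 26 alternatives. Leaving out wild-type array 1, wild-type array 2 or null array 4 gave adjusted p from 0.0512 to 0.0681, leaving out both null arrays with Xist signal gave -0.26 (adjusted p = 0.1), and the label number as a covariate gave the highest adjusted p, 0.25. A number in each sample's description, called the label number here, is shared by some animals, and what it stands for is not stated. Wild-type arrays 1 and 2 and heterozygous array 2 carry 429. Wild-type arrays 3 and 4 and heterozygous arrays 3 and 4 carry 432. Heterozygous array 5 and null array 2 carry 460, null arrays 3 and 4 carry 468, and each other array has a number of its own.

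Abhd1 was highest in null animals, intermediate in heterozygous animals and divided among wild-type animals. Its log2 level, from 1 probe set, was 7.75, 7.97, 7.72, 7.71 and 7.84 in null arrays 1 to 5. It was 7.10, 7.18, 7.31, 7.37 and 7.07 in heterozygous arrays 1 to 5. Wild-type arrays 1, 2 and 5 read 5.78, 5.78 and 5.57, while wild-type arrays 3 and 4 both read 7.23. All null arrays lay above all others, and wild-type arrays 3 and 4 lay within the heterozygous range of 7.07 to 7.37. The wild-type mean was 6.32 ± 0.837, the heterozygous mean 7.21 ± 0.13 and the null mean 7.80 ± 0.109 (SD, 5 arrays in each). The null mean was thus 1.48 above wild type (2.79-fold) and 0.59 above heterozygous (1.51-fold), and the heterozygous mean was 0.89 above wild type (1.85-fold).

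**Figure D1:**
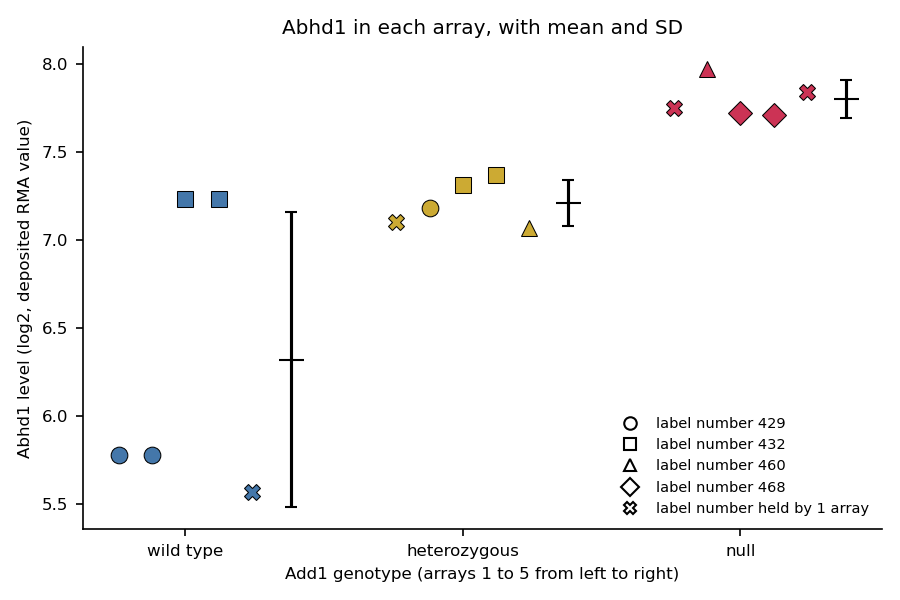
Abhd1 level (log2, vertical axis) in each array by Add1 genotype (horizontal axis), with the mean and SD of each genotype beside the points; symbols give the label number. The null arrays sit between 7.71 and 7.97, the heterozygous arrays between 7.07 and 7.37, and the wild-type arrays at 5.57 to 5.78 or at 7.23.

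In rising order the 15 Abhd1 values held 1 wide step, of 1.29, between wild-type array 2 and heterozygous array 5. The next largest step was 0.34, between heterozygous array 4 and null array 4, and every other step was 0.21 or less. The steps between neighbouring arrays within the heterozygous range or within the null range were 0.13 or less. These steps are among the values that chose Abhd1 and are given only to describe it. In the neighbours, the largest step that leaves at least 3 arrays on each side was 0.24 in Khk and 0.10 or less in the other 8, beside a median of 0.07 over all genes tested.

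Abhd1 was also compared among arrays that share a label number. The division of the wild-type arrays followed it: both arrays of 429 read 5.78, both of 432 read 7.23, and the array of 451 read 5.57. Wild-type arrays of 1 label number may thus not be independent of each other. Within 429 the heterozygous array was 1.40 above the mean of the wild-type arrays, and within 432 the heterozygous mean was 0.11 above wild type. Within 460 the null array was 0.90 above the heterozygous array. No label number holds both null and wild-type arrays, so their difference could not be taken within one. Null arrays 1 and 5, with Xist signal, read 7.75 and 7.84, inside the range of the other null arrays, and the null minus wild type difference without them was again 1.48. Leaving out any 1 array gave differences between 1.29 and 1.71.

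Each neighbour was compared between genotypes with limma over all 10109 genes, at a Benjamini-Hochberg adjusted p under 0.05. Between null and wild type, 2 of the 9 neighbours passed, Khk higher and Atraid lower. Over all genes 7.72% passed in either direction, 4.17% higher and 3.54% lower. The 2 calls make 22.2% of the 9, and with so few genes nothing particular to the neighbours is read from that share. The arrays of null and wild type did not overlap in 1 of 9 neighbours (Khk), against 5.95% of all genes. The median difference of the 9 was -0.09 (0.012 over all genes) and the median absolute difference 0.11 (0.09 over all genes). Between heterozygous and wild type, limma called 0 of 9 neighbours and 0 of all genes (0.0%), with 381 genes at an unadjusted p under 0.05 and 0 neighbours called under all 26 alternative settings. Between null and heterozygous, Khk alone was called among the 9, against 7.82% of all genes in either direction, 4.28% higher and 3.54% lower. The comparisons share arrays pairwise, so they are not independent of each other.

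**Figure D2:**
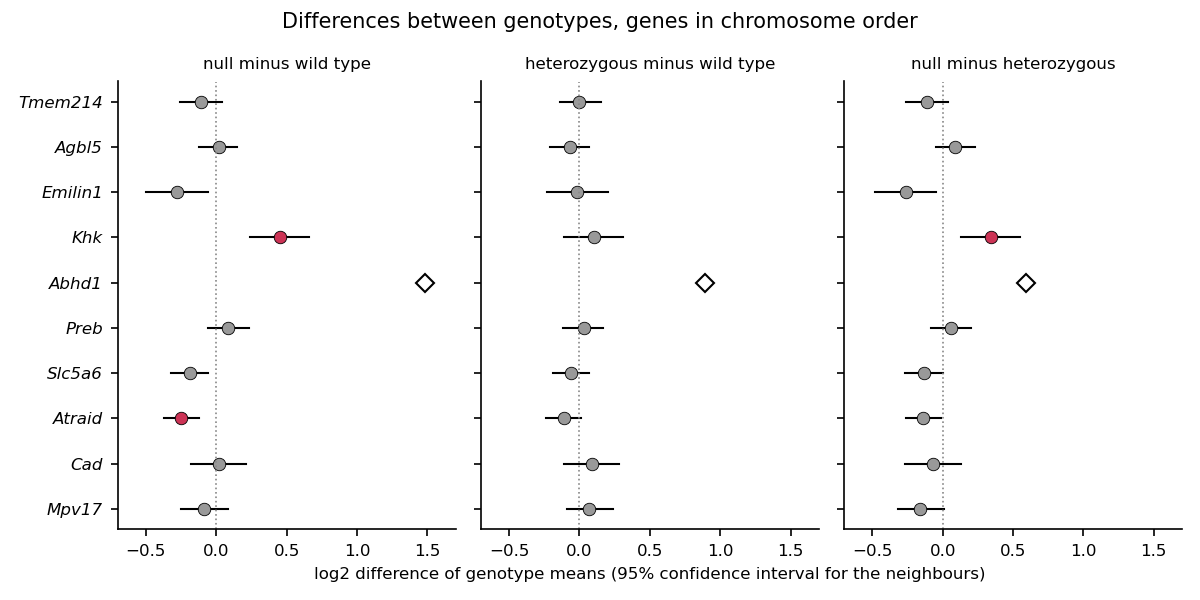
Log2 difference of genotype means (horizontal axis) for the 10 genes in chromosome order (vertical axis) in 3 comparisons. Circles with bars are neighbours with 95% confidence intervals, red where called; the open diamond is Abhd1, given without an interval. Abhd1 stands at 1.48, 0.89 and 0.59, and every neighbour lies between -0.28 and 0.45.

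Khk encodes ketohexokinase, which phosphorylates fructose, and lies 2 annotated genes from Abhd1. Its level was 6.44, 5.98, 6.34, 5.98 and 6.25 in null arrays 1 to 5. Wild-type arrays 1 to 5 read 5.81, 5.47, 5.89, 5.74 and 5.84. All 5 null arrays were above the highest wild-type array. Khk rose 1.36-fold in null against wild type, by 0.45 on the log2 scale (SE 0.0998, 95% interval 0.24 to 0.66, limma adjusted p = 0.0118). The heterozygous arrays read 5.68, 5.97, 5.79, 6.01 and 5.82, and their mean was 0.10 above wild type (interval -0.11 to 0.31, limma adjusted p = 0.994). Against heterozygous, null Khk was higher by 0.34 (limma adjusted p = 0.0429), with 3 null arrays above the highest heterozygous array. Unlike Abhd1, Khk had wild-type arrays 3 and 4 (5.89 and 5.74) among the others, not apart from them. In bulk tissue a change in RNA per cell and a change in the number of cells that hold it cannot be told apart.

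The Khk call between null and wild type held in each of the 15 fits that leave out 1 array. Without null arrays 1 and 5, which have the Xist signal, the difference was 0.35 (limma adjusted p = 0.0823), and with the label number as a covariate it was 0.47 (limma adjusted p = 0.112). Over all alternatives the adjusted p ran from 0.00448 to 0.112. The call between null and heterozygous was lost in 9 of the 15 fits without 1 array (wild type 1 or 4, heterozygous 1, 2, 3 or 5, null 1, 3 or 5), where the difference stayed between 0.28 and 0.37. Of 8 genes that handle fructose and other ketohexoses beside Khk, 5 had a probe set and 3 were tested, and 0 were called in any comparison. Tkfc, which phosphorylates the triose product of fructose breakdown, was 0.02 higher in null than in wild type (limma adjusted p = 0.846). Aldoc and Aldoa, aldolases of glycolysis, differed by 0.22 (adjusted p = 0.716) and -0.06 (adjusted p = 0.531).

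Atraid encodes a membrane glycoprotein of lysosomes that was named for its induction by all-trans retinoic acid. Wild-type arrays 1 to 5 read 9.90, 9.79, 9.69, 9.67 and 9.85. The null arrays read 9.50, 9.44, 9.55, 9.67 and 9.50. Of the null arrays 4 were below the lowest wild-type array, and null array 4 equalled it at 9.67. Atraid fell by 0.25 in null against wild type, to 84.2% of the wild-type signal (SE 0.0593, 95% interval -0.37 to -0.12, limma adjusted p = 0.0176). The heterozygous arrays read 9.74, 9.68, 9.67, 9.64 and 9.61. Their mean lay 0.11 below wild type (limma adjusted p = 0.994) and 0.14 above null (limma adjusted p = 0.158). Wild-type arrays 3 and 4 were the lowest wild-type arrays in Atraid and lay within the heterozygous range of 9.61 to 9.74. This was not particular to Atraid. It also held in Add1 (7.78 and 7.81, heterozygous range 7.68 to 7.92) and Slc5a6 (9.01 and 8.97, heterozygous range 8.94 to 9.10). These arrays were also the lowest wild-type arrays in Preb, Tmem214 and Emilin1, with array 3 below the heterozygous range, but not in Khk, Cad, Mpv17 or Agbl5. The call was lost without wild-type array 1 (-0.22, limma adjusted p = 0.058), without null arrays 1 and 5 together (-0.23, adjusted p = 0.0823), with only null and wild type in the fit (adjusted p = 0.0514) and with the label number as a covariate (-0.25, adjusted p = 0.157). Over all alternatives the adjusted p ran from 0.00946 to 0.157.

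**Figure D3:**
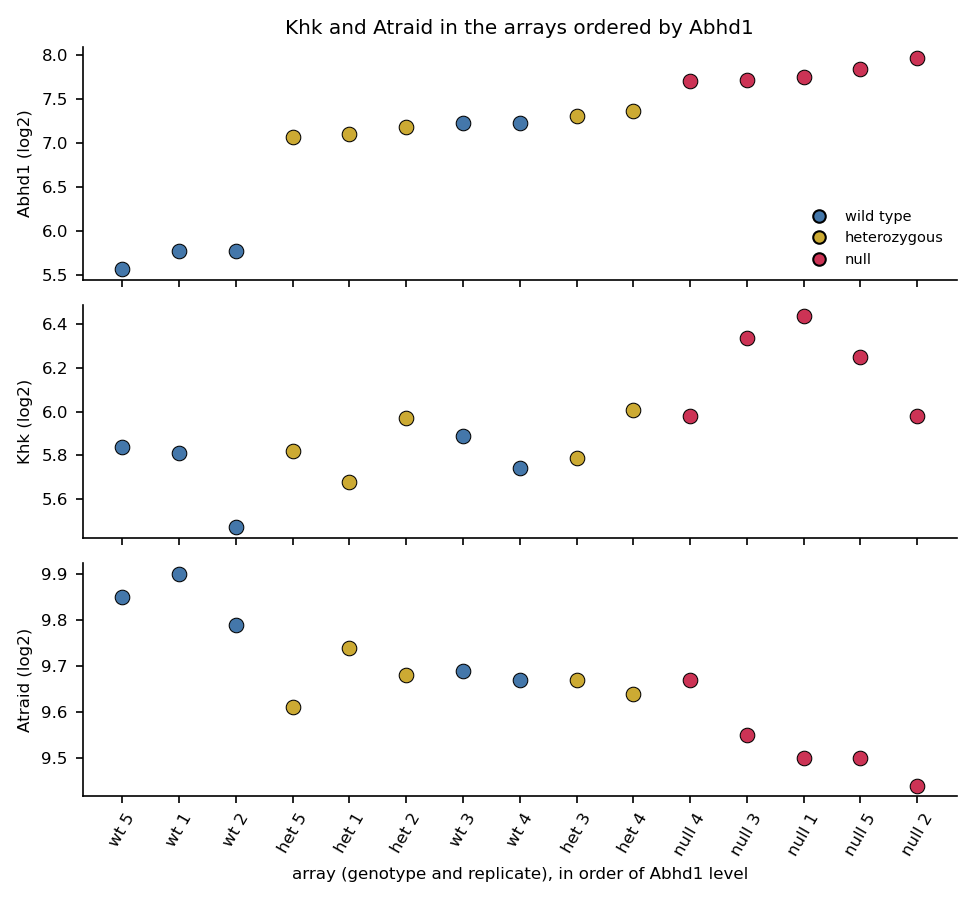
Levels (log2, vertical axes) of Abhd1, Khk and Atraid in the 15 arrays, placed from left to right by rising Abhd1 level and coloured by genotype. The arrays with the highest Abhd1 are the null arrays, where Khk runs from 5.98 to 6.44 and Atraid from 9.44 to 9.67.

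The order of the arrays was compared between genes as a description, over all 105 pairs of arrays, which share animals and genotypes. The Abhd1 values used for it are among those that chose Abhd1, and their order largely follows genotype. The ranks are therefore not read as a result. Atraid put 9.52% of pairs in the same order as Abhd1, the lowest share of all other genes tested, and 84.8% in the opposite order. The median gene put 47.6% of pairs in the same order. Khk put 75.2% in the same order and was 155th of all genes. Emilin1, Slc5a6 and Tmem214 put 75.2%, 73.3% and 65.7% in the opposite order. After the genotype means were subtracted, Atraid put 75.2% of pairs in the opposite order to Abhd1 and Khk put 53.3% in the same order. Atraid was then not the least alike, since Spred1 and Btrc put 84.8% and 82.9% in the opposite order. The genes most like Abhd1 were Cdkn1c, a cell cycle inhibitor, and Cyp39a1, an oxysterol hydroxylase, each with 87.6% of pairs in the same order. Ift46, Prkab1, Sgms1 and Slc2a1, the glucose transporter of brain barriers, had 86.7%, Lrrc74b and Sox5 85.7%, and Flvcr2 and Nat8f4 84.8%. Of these 10 genes 1, Prkab1, is on chromosome 5. Next to Atraid, the least alike were Nmt2 (10.5% in the same order), Oxnad1 and Ttc13 (11.4% each) and Ahsa2 (12.4%). Tied pairs counted as not in the same order. Oxnad1 and Ahsa2 put 84.8% and 83.8% of pairs in the opposite order, but Nmt2 only 71.4% and Ttc13 52.4%, the rest being ties.

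Slc5a6 encodes the sodium-dependent multivitamin transporter, which takes up biotin and pantothenate, and starts head to head with Atraid as shown above. Its level was 9.14, 9.31, 9.01, 8.97 and 9.05 in wild-type, 8.94, 9.06, 9.05, 9.10 and 9.04 in heterozygous and 8.86, 8.98, 8.93, 8.90 and 8.85 in null arrays. All null arrays but null array 2 lay below the lowest wild-type array, which was wild-type array 4. The difference between null and wild type was -0.19 (95% interval -0.32 to -0.06) and did not pass (limma adjusted p = 0.0707). It passed without null array 2 (-0.21, limma adjusted p = 0.0404) and with the stricter filter (adjusted p = 0.0463), and the adjusted p over all alternatives ran from 0.0404 to 0.383. The annotated spans of Slc5a6 and Atraid overlap, as do those of Atraid and Cad and of Abhd1 and Preb, and which probes lie in the shared stretches was not analysed here.

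Of 16 genes of vitamin transport and use, 14 were tested. Between null and wild type 1 was higher and 1 lower, beside 4.17% and 3.54% of all genes. With so few genes nothing particular to this list is read from the count. Slc19a1, the reduced folate carrier, rose by 0.40 (8.86 ± 0.0497 to 9.26 ± 0.206, SD, n = 5 each, limma adjusted p = 0.00648). Btd, which frees biotin from protein, fell by 0.24 (limma adjusted p = 0.0278), a call that ended under 8 of 26 alternatives. These leave out wild-type array 2, wild-type array 3, null array 1, null array 3 or both null arrays with Xist signal (-0.22, adjusted p = 0.101), test without a filter, fit only null and wild type, or add the label number as a covariate (adjusted p = 0.14). The median difference of the 14 was 0.06.

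The enzyme Cad, which carries out the opening steps of pyrimidine synthesis, differed little between the genotype means. Its wild-type arrays ran from 5.74 to 6.11, the heterozygous arrays from 5.85 to 6.41 and the null arrays from 5.94 to 6.10. The heterozygous arrays spread most, with heterozygous array 4 at 6.41. The null minus wild type difference was 0.02 (95% interval -0.18 to 0.21, limma adjusted p = 0.937), an interval that leaves out changes beyond 0.21 in either direction. Of 10 tested genes of pyrimidine synthesis and salvage, 1 fell in null against wild type, beside 3.54% of all genes called lower. This was Nme1, a nucleoside diphosphate kinase, by 0.38 (limma adjusted p = 0.0349), a call lost under 10 of 26 alternatives, 5 of them fits without 1 array. It was -0.27 (adjusted p = 0.174) when null arrays 1 and 5 were left out. In null against heterozygous Cmpk1, which phosphorylates CMP and UMP, rose by 0.43 (limma adjusted p = 0.00179) and held in all 15 such fits. Nme1 and Nme2 were lower in null than in heterozygous by 0.41 and 0.50 (limma adjusted p = 0.0265 and 0.0488), calls lost under 7 of 26 and 19 of 25 alternatives. Over all genes 4.28% were called higher and 3.54% lower in null against heterozygous.

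Preb and Tmem214 belong to the endoplasmic reticulum. Preb, the mammalian Sec12, loads the small GTPase Sar1 and so starts COPII vesicles, and it is the gene next to Abhd1 on the side of Add1. Preb read 8.63, 8.60, 8.45, 8.49 and 8.55 in wild-type arrays and 8.68, 8.72, 8.73, 8.61 and 8.40 in null arrays. The null arrays held both the highest and, in null array 5, the lowest value of all. Its difference was 0.08 (95% interval -0.06 to 0.23, limma adjusted p = 0.477), so the adjacent gene on that side did not pass in the comparison where Abhd1 differed by 1.48. Of 13 tested genes of COPII export 0 were called in any comparison, the smallest p being that of Tfg in null against wild type (-0.19, limma adjusted p = 0.0574). Tmem214, the outermost member on the side away from Add1, ran from 8.61 to 8.94 in wild-type and from 8.52 to 8.81 in null arrays (difference -0.11, limma adjusted p = 0.369).

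Emilin1 encodes a glycoprotein of elastic fibres. Wild-type arrays read 5.49, 5.52, 5.18, 5.43 and 5.92 and null arrays 5.06, 5.38, 5.28, 5.27 and 5.15. Wild-type array 3, at 5.18, lay among the null arrays, and wild-type array 5 was the highest of all. The difference was -0.28 (95% interval -0.50 to -0.06) and did not pass (limma adjusted p = 0.107). It passed only without wild-type array 3 among all alternatives (-0.36, limma adjusted p = 0.0422, with adjusted p up to 0.379 in the others). Of 10 EMILIN and elastic fibre genes with a probe set, 4 were tested and 1 rose in null against wild type. This was Fbln5, which helps assemble elastic fibres, by 0.84 (8.11 ± 0.147 to 8.95 ± 0.244, SD, n = 5 each, limma adjusted p = 4.03e-04). Eln, elastin itself, was 0.30 higher (limma adjusted p = 0.0814). Of 5 stromal markers tested, 2 (Dcn and Pdgfra) were higher in null than in wild type, while Col1a1, Col1a2 and Lum did not pass. Over all genes 4.17% were called higher and 3.54% lower. The stromal list means ran from 7.84 to 8.24 in wild-type, 7.87 to 8.36 in heterozygous and 8.22 to 8.63 in null arrays. Of 4 endothelial markers measured, 2 passed the filter (Cdh5 and Kdr) and both were called higher in null, while Pecam1 and Cldn5 were not tested. Cdh5 read 5.04 to 5.56 in wild-type, 4.89 to 5.35 in heterozygous and 5.35 to 6.25 in null arrays. It passed the filter level of 5.31 in enough arrays only through the null arrays, so its call is not read as a result. The endothelial list means ran from 5.37 to 5.66, 5.48 to 5.60 and 5.70 to 6.12 in the same order. Of 10 epithelial markers tested, 1 was called higher and 2 lower in null than in wild type. Of the neuronal, oligodendrocyte, astrocyte and macrophage markers tested, 0 were called. The part of these markers in the member differences was not tested.

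Mpv17 and Agbl5 complete the members. Mpv17, an inner mitochondrial membrane protein needed to keep mitochondrial DNA, ran from 7.95 to 8.20 in wild-type, 8.10 to 8.23 in heterozygous and 7.86 to 8.32 in null arrays. Null array 2 was the highest of all 15, and 3 null arrays were below the lowest wild-type array. The null minus heterozygous difference was -0.16 (limma adjusted p = 0.214). Without null array 2 it was -0.24 and passed (limma adjusted p = 0.0154), while over all alternatives the adjusted p ran from 0.0154 to 0.517. Of 11 tested genes of mitochondrial DNA upkeep 0 were called, the smallest p in null against wild type being that of Pxmp2, a relative of Mpv17 (0.35, limma adjusted p = 0.056). Agbl5, a carboxypeptidase that removes branch-point glutamates from tubulin tails, ran from 5.52 to 5.90, 5.56 to 5.67 and 5.64 to 5.85 in wild-type, heterozygous and null arrays. Its null minus wild type difference was 0.02 (95% interval -0.12 to 0.15, limma adjusted p = 0.907). Of 9 tested carboxypeptidases and ligases of tubulin tails 0 were called.

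**Figure D4:**
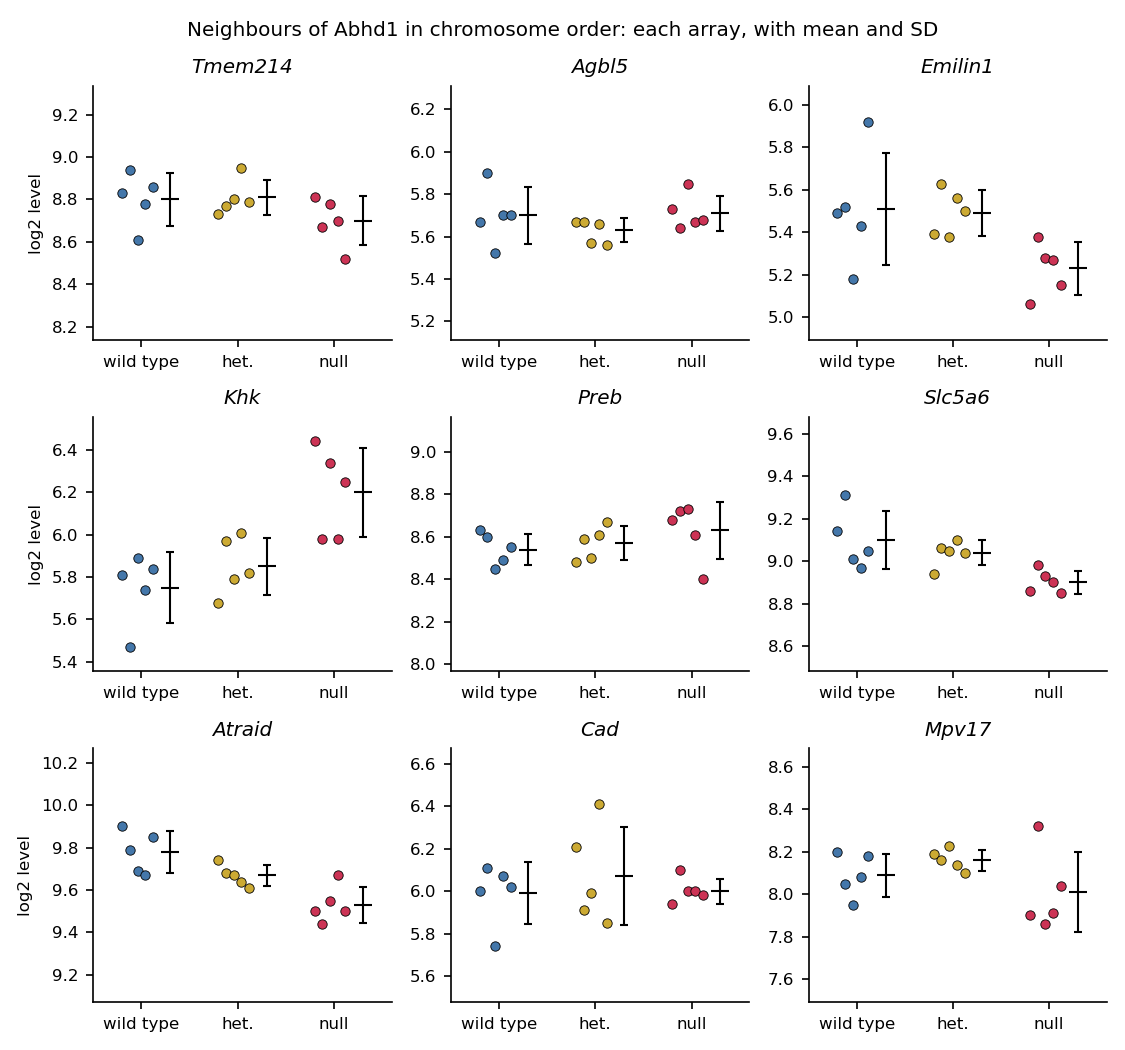
Levels (log2, vertical axes, each panel spanning the same height) of the 9 neighbours in each array by genotype, in chromosome order, with mean and SD beside the points. Khk null arrays (5.98 to 6.44) stand above the wild-type arrays (5.47 to 5.89), and in the other panels null and wild-type arrays overlap or touch.

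Among 17 tested relatives of Abhd1 with the ABHD hydrolase fold, 0 rose in null against wild type and 1 fell. This was Abhd3, a phospholipase, by 0.46 (8.32 ± 0.105 to 7.86 ± 0.134, SD, n = 5 each, limma adjusted p = 0.00157), and the call held in all 15 fits without 1 array. Its null mean was also 0.43 below heterozygous (limma adjusted p = 0.00302). The differences of the 17 between null and wild type ran from -0.46 to 0.11 with a median of -0.02. Abhd1 was chosen by this difference, so its standing above these relatives is not read as a result.

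Genes that lie between the outermost members without being listed were also read. Ost4, a subunit of oligosaccharyltransferase, was the only one above the filter. It ran from 7.58 to 7.91 in wild-type, 7.87 to 8.08 in heterozygous and 7.62 to 7.86 in null arrays. Null minus wild type was 0.03 (limma adjusted p = 0.852). Heterozygous minus wild type was 0.22 and null minus heterozygous -0.19, neither of them called, although all heterozygous arrays lay above all null arrays. Cgref1, the gene beside Abhd1 on the side of Khk, ran from 4.87 to 5.22 in wild-type, 4.95 to 5.16 in heterozygous and 4.96 to 5.47 in null arrays. Tcf23, Slc30a3, Dnajc5g, Trim54 and Ucn lay between 3.07 and 5.55 in all arrays and were not tested.

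Of 37 tested genes between the members and Add1, 1 was called in null against wild type, or 2.70%. It was the receptor Fgfr3 (0.37, limma adjusted p = 0.0486), a call lost under 18 of 25 alternatives, 11 of them fits without 1 array. Among the 30 tested genes beyond the members 3 were called, and among the 30 beyond Add1 another 3. On both of these outer sides the share called was thus larger than on the other chromosomes. With so few genes, nothing particular to the outer sides is read from it. On the rest of chromosome 5 the share was 5.73% of 558 genes, and on the other chromosomes 7.82% of 9429. Abhd1 was chosen by this difference, so its having the largest absolute value between the outermost members and Add1 is not read as a result. Among the other tested genes of that stretch the largest absolute difference was that of Khk.

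**Figure D5:**
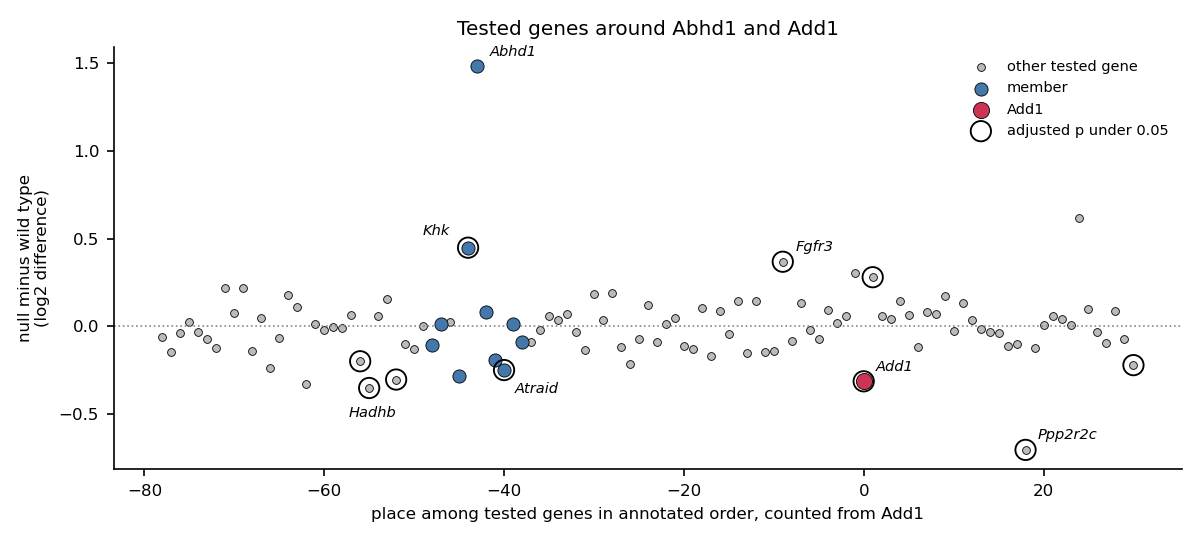
Null minus wild type log2 difference (vertical axis) of tested genes by their place in the annotated order counted from Add1 (horizontal axis); blue points are members, the red point Add1, and rings mark an adjusted p under 0.05, not drawn for Abhd1. Abhd1 stands at 1.48, with Khk at 0.45, Atraid at -0.25 and Add1 at -0.31.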

How the data were processed

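RNA of 15 animals was measured on 15 arrays, and the number of arrays limits the precision. The authors used RMA (background correction, quantile normalization and probe summary) in Affymetrix Expression Console 1.1, per the submitters' processing notes. The deposited values were taken as log2 from their range of 1.57 to 13.89; the log base and genome build are not stated. Gene names came from the platform annotation, which may be out of date, and the highest-mean probe set per gene was kept. Genes above 5.31, the median of all values, in at least 5 arrays were fitted over all 15 arrays in limma 3.58.1 under R 4.3.3, by lmFit and eBayes with 1 mean per genotype. A gene was called at a Benjamini-Hochberg adjusted p under 0.05. The procedure was tested on simulated data.

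Members, gene lists and rules were chosen with earlier results of these data known. Besides the members and Add1, named genes are called genes around them (smallest p first), the 10 genes most and 5 least like Abhd1 in array order, unlisted genes between the members, and up to 3 genes of each role list by p. The reference gene table served only for names, order and gene class, and the promoter windows are RefSeq's. Alternatives were other filters, scalings, variance models and probe set rules, the replicate and label numbers in the fit, and leaving out arrays.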

Additional observations from a re-analysis of the deposited data

How the results depend on the processing

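The Abhd1 differences kept their direction under all 26 alternatives, at 1.29 to 1.71 for null minus wild type, 0.70 to 1.12 for heterozygous minus wild type and 0.55 to 0.80 for null minus heterozygous. Of 690 values of the neighbours under alternatives, 651 kept direction and side of the threshold. This count takes all heterozygous minus wild type values of Tmem214 as kept, since that difference was 0.00 in the main fit and had no direction to lose. The count of neighbours called between null and wild type was 2; it was 1 with only the 2 genotypes in the fit, 0 with the label number as a covariate and 0 without the 2 null arrays with Xist signal, and ran from 1 to 3 without 1 array (1 without wild-type array 1). Under the stricter filter only 5 neighbours were tested, Khk not among them, and the 2 called were Slc5a6 and Atraid. Between null and heterozygous it was 1; it was 0 with no filter, the stricter filter (Khk not tested), quantile normalization again, median centring, only the 2 genotypes in the fit, the label number as a covariate and without the 2 null arrays with Xist signal, and ran from 0 to 2 without 1 array. Genes called between the members and Add1 numbered 1; the count was 0 under those first 6 settings and with the label number as a random block, and ran from 0 to 2 without 1 array (2 without null array 5). The causes were not tested. All genes called between null and wild type numbered 780, 259 with the label number as covariate, 401 without the 2 null arrays with Xist signal, 458 with only the 2 genotypes, 523 with no filter and 1420 without null array 2.

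Replicate numbers of the titles did not pair the animals: deviations of same-numbered arrays correlated between -0.254 and 0.238, over 0.1 in 4 of 15 pairs. With the replicate block the neighbours called were 2 between null and wild type, 0 between heterozygous and wild type and 0 between null and heterozygous (Khk 0.34, limma adjusted p = 0.0676), genes called between the members and Add1 were 0, and all genes called between null and wild type 520. The null minus wild type calls of Add1, Nme1, Fgfr3, Hadha, Fam166c, Hs3st1 and Mfsd10 ended with it (adjusted p 0.0575, 0.0569, 0.0904, 0.0742, 0.0619, 0.0557 and 0.0795).

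Differences that turned sign lay near 0. Null minus wild type was -0.02 (quantile normalization again) and -0.01 (median centring) for Cad and for Agbl5, and without 1 array -0.05 to 0.05 for Cad and -0.03 to 0.07 for Agbl5. Heterozygous minus wild type of Emilin1 ran from -0.10 to 0.09 without 1 array, and that of Tmem214 from -0.04 to 0.04. Null minus heterozygous of Cad was 0.02 with the label number as a covariate and -0.13 to 0.01 without 1 array.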

Other observations

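Genes on the outer sides of the stretch also differed between null and wild type. Hadhb and Hadha, the subunits of the mitochondrial trifunctional protein of fatty acid oxidation, lie 12 and 13 tested genes from Abhd1 on the side away from Add1. Hadhb fell by 0.35 (10.50 ± 0.115 to 10.15 ± 0.21, SD, n = 5 each, limma adjusted p = 0.0179) and Hadha by 0.20 (9.86 ± 0.0653 to 9.66 ± 0.06, limma adjusted p = 0.0322). Fam166c fell by 0.30 (limma adjusted p = 0.0316). The Hadhb call was lost under 3 of 26 alternatives, 2 of them fits without 1 array. The Hadha call was lost under 10 of 26 and the Fam166c call under 9 of 25, both also without the null arrays with Xist signal (adjusted p = 0.121 and 0.0706).

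Beyond Add1, Ppp2r2c, a regulatory subunit of protein phosphatase 2A, fell by 0.70 (8.25 ± 0.124 to 7.55 ± 0.154, SD, n = 5 each, limma adjusted p = 4.03e-04), and the call held under all 26 alternatives. Hs3st1, a heparan sulfate sulfotransferase, fell by 0.22 (limma adjusted p = 0.0276), lost under 9 of 25, among them the fit without the null arrays with Xist signal (adjusted p = 0.071). Mfsd10, the tested gene next to Add1, rose by 0.28 (limma adjusted p = 0.0486), lost under 19 of 25, with adjusted p up to 0.177.

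With the genotype means subtracted, the genes closest to Abhd1 in array order were Tmem177 (81.9% of pairs in the same order), Acp2 (81.0%) and Krr1 (80.0%). The 10 genes closest by this measure and the 10 closest by the values shared 0 genes.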
